A study of Mus musculus with 17 samples.

Results

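Axon guidance ligands and receptors were examined across 4 groups of germ cells sorted from mouse testis. The members were all rows of the count table whose gene symbol is an Eph receptor, ephrin, semaphorin of classes 3 to 7, plexin, neuropilin, Slit, Robo, netrin (Ntn1, Ntn3, Ntn4 or Ntn5), Unc5 receptor or Dcc. They came to 69 of the 24013 rows, with 14 Eph receptors, 8 ephrins, 20 semaphorins, 9 plexins, 2 neuropilins, 3 Slits, 4 Robos, 4 netrins and 5 netrin receptors. By role, 35 members were ligands and 34 were receptors. The rule used names alone, but it was chosen with earlier results of these data known. All 17 libraries carried the label Tert-Tomato/+, a fluorescent reporter of telomerase reverse transcriptase, on a B6/J X B6/N mixed background. Adult TERT-high Kit-negative cells were split by GFRα1, a receptor for the growth factor GDNF, into GFRA1pos (n = 4) and GFRA1neg (n = 4). Adult TERT-high Kit-positive cells formed KITpos (n = 5). Gonocytes positive for TERT and for OCT4-GFP, from day 6 neonates, formed P6gonocyte (n = 4). The labels do not describe the OCT4-GFP reporter further, and they do not say whether the libraries of a group came from separate animals. The p-values therefore measure the spread between these libraries, which may be technical.

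Guidance cues were first described as signals that steer growing axons, and the same ligands and receptors act on cell contact, migration and tissue boundaries outside the nervous system. Ephrins are held at the cell surface and signal to Eph receptor tyrosine kinases on a touching cell, with signals passing in both directions. Semaphorins are secreted or membrane-bound ligands of plexins, and the secreted class 3 members usually need a neuropilin as co-receptor. Slits bind Robo receptors and mostly repel, while netrins attract through Dcc and repel through Unc5 receptors. In the testis, undifferentiated spermatogonia move along the basal side of the seminiferous tubule, and Kit marks the step to differentiating spermatogonia.

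Total counts per library ran from 5178352 to 12641907. The adult sorts matched their labels in Gfra1 and Kit. Gfra1 lay at 355 to 426 CPM (counts divided by the TMM-scaled library size, the usual depth-normalized unit) in GFRA1pos and at 18.6 to 25.6 in GFRA1neg. Kit lay at 266 to 453 CPM in KITpos, and at 12.6 to 49.3 in the GFRA1pos and GFRA1neg libraries. P6gonocyte held both transcripts, with Gfra1 at 118 to 157 CPM and Kit at 166 to 231. Tert, the gene behind the TERT gates, was at 3.81 to 15.4 CPM over all libraries. The 10 germ cell markers summed to 1396 to 2506 CPM in every library. Markers of later germ cells were present in adult libraries: 5 spermatocyte markers summed to 119 to 2003 CPM and 5 spermatid markers to 49.8 to 1324 CPM, against 28.7 to 35.7 and 1.14 to 2.64 CPM in P6gonocyte. Sertoli cell markers summed to 65.4 to 219 CPM in P6gonocyte, highest in replicate 2, against 11.4 to 39.9 elsewhere, and Leydig cell markers reached 138 CPM in KITpos replicate 1. P6gonocyte replicate 2 also stood apart in Pou5f1, the gene for OCT4, at 5.53 CPM against 23.1 to 26.3 in the other P6gonocyte libraries. The adult libraries held Pou5f1 at 0 to 5.46 CPM. Endothelial markers, which matter here because vessels use ephrins, Slits and semaphorins, summed to 26.5 to 32.1 CPM in GFRA1pos, against 17.4 to 23.1 in GFRA1neg, 10.9 to 15.9 for KITpos libraries and 17.9 to 25.5 for P6gonocyte libraries. Of the 9 endothelial markers, Emcn, Esam and Cldn5 stayed under 1 CPM in every library, while Cdh5, Tek and Egfl7 were above 1 CPM in every library.

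Counts were measured for every member in at least 1 library, and 57 of the 69 passed the filter on low counts. Of these, 40 of 57 (70.2%) differed among the 4 groups (edgeR quasi-likelihood test, adjusted p under 0.05), against 73.5% of all 15451 genes tested. The guidance genes thus changed between the sorted groups about as often as genes at large. Levels of different genes are compared per kilobase of the longest annotated transcript (CPM per kb), as the mean ± SD over 4 libraries, or 5 for KITpos. Semaphorins had the highest family sums, at 103.5 ± 11.1 CPM per kb for GFRA1pos, 89.3 ± 3.08 for GFRA1neg, 55.4 ± 8.35 for KITpos and 71.8 ± 8.71 for P6gonocyte. Plexins followed at 57.96 ± 6.76, 60.03 ± 1.45, 36.9 ± 8.76 and 43.5 ± 3.55 CPM per kb in the same order. Both families were lowest in KITpos. The Eph receptors stood at 31.3 ± 5.49, 15.97 ± 0.857, 20.04 ± 4.50 and 18.96 ± 3.11 CPM per kb, so that GFRA1pos was highest. Ephrins varied less between groups, with means from 18.7 to 23.95 CPM per kb. Slits and Robos lay between 7.05 and 16.8 CPM per kb, netrin receptors between 8.18 and 12.04, netrins between 3.42 and 7.19, and neuropilins between 1.06 and 2.38. These are bulk measurements, so fewer cells of a type and less RNA per cell cannot be told apart.

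**Figure D1:**
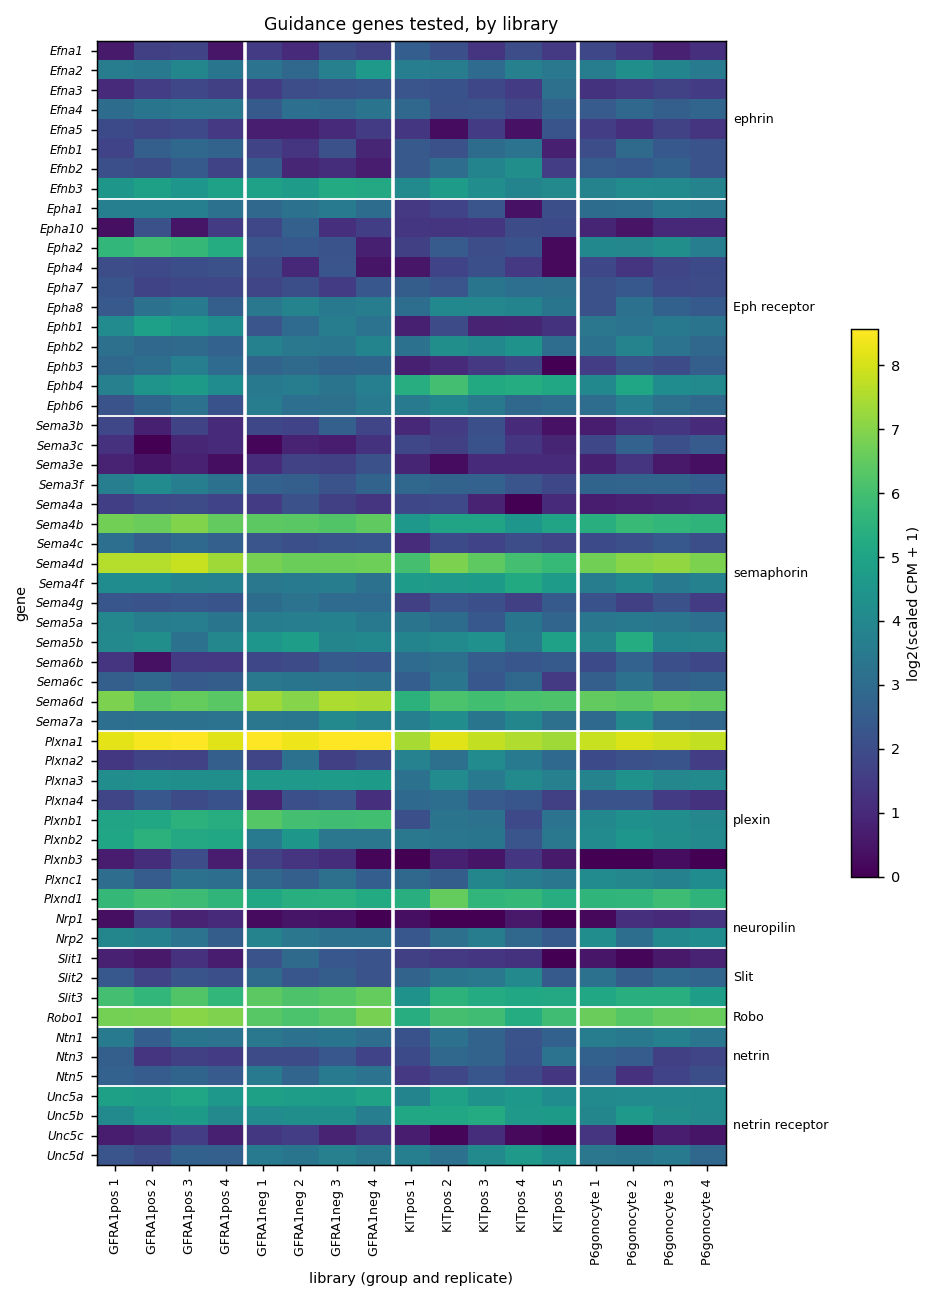
Level of the 57 guidance genes tested (rows, grouped by family) in each of the 17 libraries (columns, grouped by sort), as log2(scaled CPM + 1) in color. Along its row Epha2 is brightest in the 4 GFRA1pos libraries (38.8 to 59.4 CPM), Plxnb1 in the 4 GFRA1neg libraries (60.2 to 77.3 CPM) and Ephb4 in the 5 KITpos libraries (34.0 to 62.6 CPM).

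Between GFRA1pos and GFRA1neg, the adult fractions split by GFRα1, guidance genes moved in both directions. Epha2, Ephb1, Ephb4, Plxnb2, Sema3f, Sema4d and Sema4f were higher in GFRA1pos. Slit1, Unc5d, Plxnb1, Sema3e, Sema4g, Sema6b and Sema6d were lower. This made 14 of 57 members called (24.6%) against 14.1% of all genes, with 7 higher (7.3% of all genes were higher) and 7 lower (6.84%). The libraries of both groups did not overlap for 22 of 57 members, against 23.3% of all genes. The median log2 fold change was -0.05 over the members and -0.04 over all genes. By family, 7 of 16 semaphorins, 3 of 11 Eph receptors, 2 of 9 plexins, 1 of 3 Slits and 1 of 4 netrin receptors were called. The calls depended on the libraries used, for the members and for all genes. With the 4 libraries highest in spermatid transcripts left out (GFRA1pos replicates 2 and 4, GFRA1neg replicate 2 and KITpos replicate 1), 4 members stayed higher (Epha2, Plxnb2, Sema3f and Sema4d) and 1 stayed lower (Sema6d), while all 14 kept their direction. Over all genes this setting gave 753 higher and 515 lower of 15861, against 1128 and 1057 of 15451 with all libraries. Leaving out a single library gave 3 to 8 lower members: 3 without GFRA1pos replicate 2 or GFRA1neg replicate 4, and 4 without GFRA1pos replicate 1 or 4 or GFRA1neg replicate 3. Over all genes those fits gave 705 to 754 lower, of 15696 to 15744 tested. The 9 endothelial markers summed to 26.5 to 32.1 CPM in GFRA1pos against 17.4 to 23.1 in GFRA1neg, and the 9 macrophage and leukocyte markers to 11.4 to 14.5 against 2.47 to 6.398 CPM. Of the latter 3 reached 1 CPM in a GFRA1pos library (Mrc1, Csf1r and C1qb) and Adgre1, Ptprc, C1qa, C1qc, Lyz2 and Cx3cr1 did not. Most of the sum in GFRA1pos was Mrc1, at 7.685 to 10.57 CPM there against 0.296 to 3.04 in GFRA1neg. Csf1r overlapped, at 1.81 to 2.87 against 1.18 to 2.66 CPM. The part of endothelial and leukocyte RNA in the differences of the members was not tested.

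From GFRA1neg to KITpos, the step at which Kit appears, the calls were mostly downward. Members lower in KITpos were Epha1, Ephb1, Ephb3, Efnb3, Robo1, Slit1, Slit3, Ntn1, Ntn5, Plxna1, Plxna3, Plxnb1, Sema3e, Sema4b, Sema4g, Sema5a and Sema6d. Those higher were Epha7, Ephb4, Efnb2, Slit2, Unc5b, Plxna2 and Sema4f. That is 24 of 57 called (42.1%) against 45.1% of all genes, with 7 higher (22.1% of all genes) and 17 lower (23% of all genes). The members' median log2 fold change was -0.43 and that of all genes 0.03. Groups did not overlap for 19 of 57 members, against 33.8% of all genes. The 8 Leydig markers summed to 24.3 to 138 CPM in KITpos, where all 8 reached 1 CPM in a library, and to 9.77 to 32.3 in GFRA1neg. The part of Leydig cell RNA in these differences was not tested.

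Between P6gonocyte and GFRA1pos, neonatal and adult cells, the lower calls again outnumbered the higher. Slit2, Unc5d, Plxnc1, Sema3c and Sema6b were higher in P6gonocyte. Epha2, Ephb1, Ephb3, Efnb3, Slit3, Unc5a, Plxna1, Plxnb1, Plxnb2, Plxnb3, Sema3f, Sema4a, Sema4b, Sema4c and Sema4d were lower. The total was 20 of 57 called (35.1%) against 39.2% of all genes, with 5 higher (17.3% of all genes) and 15 lower (21.9% of all genes). Groups did not overlap for 24 of 57 members, against 41.5% of all genes. The median log2 fold change was -0.30 over the members and -0.05 over all genes. Age and the gates differ together here, so they cannot be told apart, and the Sertoli, spermatocyte and spermatid sums differ between these groups as given above. The 9 myoid and fibroblast markers also differed, at 46.5 to 61.7 CPM in P6gonocyte against 25.2 to 35.2 in GFRA1pos, and the part of these cells was not tested. Without P6gonocyte replicate 2 the test called 4 members higher and 12 lower, and without the 4 libraries highest in spermatid transcripts 0 higher (4 at an unadjusted edgeR p under 0.05) and 10 lower. Over all genes these 2 settings gave 2370 higher and 3055 lower of 15923, and 1850 and 2121 of 15861. With all libraries 2679 genes were higher and 3381 lower, of 15451. This comparison shares the GFRA1pos libraries with the first, and the first shares GFRA1neg with the comparison to KITpos, so their values are set side by side below without a test between them.

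**Figure D2:**
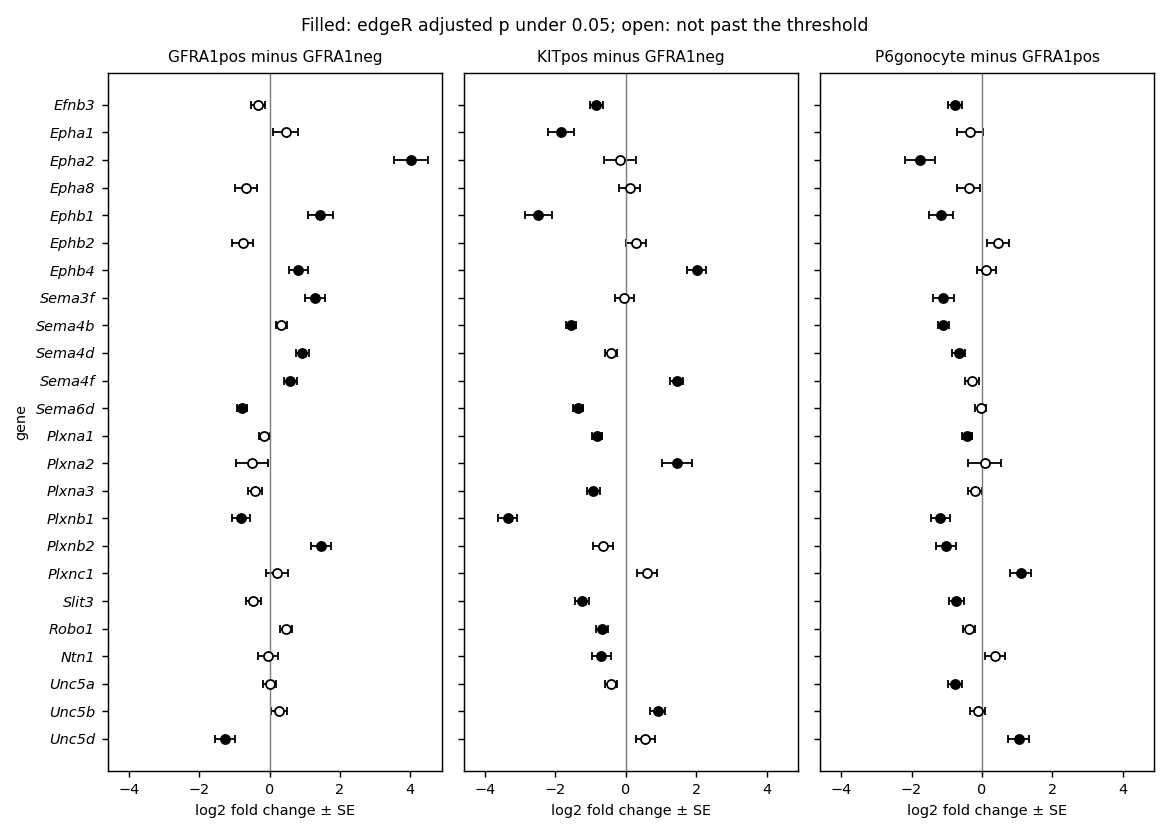
Log2 fold change with its SE (x axis) for 24 guidance genes (rows) in the 3 comparisons, from the edgeR fit on 17 libraries. Filled points passed an adjusted p under 0.05: Epha2 lies farthest right between GFRA1pos and GFRA1neg at 4.02, and Plxnb1 farthest left between KITpos and GFRA1neg at -3.36.

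Promoter sequence is shown for 3 members whose highest group stood apart from every other library: Epha2 (highest in GFRA1pos), Plxnb1 (highest in GFRA1neg) and Ephb4 (highest in KITpos). Each line is the 250 bases upstream of a RefSeq transcript start in the GRCm38.p6 assembly, 5′ to 3′ on the gene's strand. The windows are chr4:141300971-141301220 on the plus strand for Epha2, chr9:109095186-109095435 on the plus strand for Plxnb1 and chr5:137349859-137350108 on the plus strand for Ephb4. Capitals mark matches, on either strand, to the letters searched: CCGGAAG (the core of an ETS site), TGANTCA (AP-1), TGACGTCA (cyclic AMP response element, CRE), CACGTG (E-box) and GGGCGG (GC box).
Epha2: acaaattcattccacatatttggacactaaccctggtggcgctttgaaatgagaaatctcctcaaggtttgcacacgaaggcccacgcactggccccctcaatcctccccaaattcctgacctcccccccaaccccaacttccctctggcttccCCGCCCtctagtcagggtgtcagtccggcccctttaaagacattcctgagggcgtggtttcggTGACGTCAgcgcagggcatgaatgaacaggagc
Plxnb1: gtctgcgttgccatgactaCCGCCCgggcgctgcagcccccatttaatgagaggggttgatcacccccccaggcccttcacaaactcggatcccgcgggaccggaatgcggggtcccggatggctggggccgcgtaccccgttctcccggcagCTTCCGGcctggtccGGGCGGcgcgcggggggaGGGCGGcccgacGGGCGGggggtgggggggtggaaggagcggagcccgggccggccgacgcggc
Ephb4: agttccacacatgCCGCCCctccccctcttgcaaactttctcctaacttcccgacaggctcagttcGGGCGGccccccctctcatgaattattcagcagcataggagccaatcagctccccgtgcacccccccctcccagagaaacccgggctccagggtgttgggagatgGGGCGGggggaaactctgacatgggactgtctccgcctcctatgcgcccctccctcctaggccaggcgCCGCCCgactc
In the Epha2 window, which was 55.6% G and C, the CRE letters and 1 GC box were found. Plxnb1, at 75.2% G and C, held 4 GC boxes and 1 match to the ETS letters, and Ephb4 held 4 GC boxes. No matches overlapped in these 3 windows. Windows were available for 59 of the 69 members. GC box letters lay in the windows of 44 of 59 members (74.6%), against 35.4% of all 27025 genes with a window. The CRE letters were in 1 of 59 member genes, Epha2, against 1.77% of all genes. For the ETS, AP-1 and E-box letters the counts were 2, 3 and 4 of 59 members, against 7.83%, 7.82% and 6.86% of all genes. A match describes the letters and is not a bound site.

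Among the ephrins, Efnb3, a transmembrane B-class ligand known as a midline barrier in the spinal cord, led in level per length in the 3 adult groups. It stood at 22, 28.01, 21.7 and 28.9 CPM in GFRA1pos, 29.1, 25.6, 36.97 and 34.8 in GFRA1neg, 15.8, 25.7, 17.4, 13.6 and 15.4 in KITpos, and 13.2, 16.4, 15.9 and 13.3 in P6gonocyte. GFRA1pos and GFRA1neg overlapped, and every P6gonocyte library lay below every adult Kit-negative library. Efnb3 was lower in KITpos than in GFRA1neg (log2 fold change -0.84 ± 0.19 (SE), edgeR adjusted p = 0.0011) and lower in P6gonocyte than in GFRA1pos (log2 fold change -0.77 ± 0.20 (SE), edgeR adjusted p = 0.00502). The second of these calls ended without the 4 libraries highest in spermatid transcripts (-0.54, edgeR adjusted p = 0.0918). Efnb2, the ligand of EphB4 and a marker of arterial vessels, was 0.592 to 4.42 CPM in GFRA1neg and 1.91 to 17.6 in KITpos, which overlapped. It was nonetheless called higher in KITpos (log2 fold change 2.32 ± 0.59 (SE), edgeR adjusted p = 0.00329). Efna2 and Efna4, ligands tethered by a lipid anchor, came next per length, and Efna2 led in P6gonocyte. Efna2 stood at 5.23, 5.92, 4.87 and 6.28 CPM per kb in GFRA1pos, GFRA1neg, KITpos and P6gonocyte and did not pass the test over the 4 groups (edgeR adjusted p = 0.665). Efna4 did pass it (edgeR adjusted p = 0.0166), with 7.10 to 9.86 CPM in GFRA1pos and 2.56 to 6.44 in KITpos. Efna3 passed it narrowly (edgeR adjusted p = 0.0497), at 1.06 to 7.97 CPM over all libraries, and lost the call without any 1 of 13 libraries, all but GFRA1pos replicate 3, GFRA1neg replicate 1 and KITpos replicates 3 and 4. The other 3 ephrins, Efna1, Efna5 and Efnb1, did not pass, at 0.232 to 8.53 CPM. Between GFRA1pos and GFRA1neg 0 of 8 ephrins passed the edgeR test; 1 had an unadjusted p under 0.05, and DESeq2 and limma voom also called 0.

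Epha2, a receptor for A-class ephrins studied mostly in epithelia and tumors, showed the largest fold of any member between GFRA1pos and GFRA1neg. It stood at 50.3, 59.4, 50.5 and 38.8 CPM in GFRA1pos, 3.76, 4.16, 3.58 and 0.691 in GFRA1neg, 2.10, 4.52, 3.11, 3.41 and 0.173 in KITpos, and 14.9, 14.6, 17.7 and 11.5 in P6gonocyte. The GFRA1pos libraries lay above all others, P6gonocyte came next, and GFRA1neg and KITpos overlapped at the low end. Epha2 was higher in GFRA1pos than in GFRA1neg (log2 fold change 4.02 ± 0.48 (SE), edgeR adjusted p = 1.29e-05) and lower in P6gonocyte than in GFRA1pos (log2 fold change -1.76 ± 0.42 (SE), edgeR adjusted p = 0.00321). Between KITpos and GFRA1neg it did not pass (log2 fold change -0.17 ± 0.46 (SE), edgeR adjusted p = 0.8). Per length it made up 40.8% ± 3.997 (SD, n = 4) of the Eph receptor signal in GFRA1pos, 19.99% ± 3.66 (SD, n = 4) in P6gonocyte, 4.89% ± 2.55 (SD, n = 4) in GFRA1neg and 3.19% ± 1.70 (SD, n = 5) in KITpos. Endothelial marker sums were also highest in GFRA1pos, at 26.5 to 32.1 CPM for 9 genes. Tie1, Emcn, Esam and Cldn5 were under 1 CPM there. Kdr was at 5.49 to 7.36 CPM in GFRA1pos and 0.693 to 1.32 in GFRA1neg, and Tek at 4.70 to 11.15 and 2.54 to 3.76. Pecam1 went the other way, at 2.11 to 3.37 CPM in GFRA1pos and 3.52 to 4.64 in GFRA1neg. Cdh5 overlapped (5.66 to 9.85 and 5.68 to 9.28 CPM), as did Egfl7 (3.38 to 6.25 and 2.54 to 4.15 CPM). Of the 5 endothelial markers tested between these groups, 2 were called higher in GFRA1pos and 0 lower. Macrophage marker sums were likewise highest in GFRA1pos, at 11.4 to 14.5 CPM, most of it Mrc1 at 7.685 to 10.57 CPM. The part of endothelial and macrophage RNA in the Epha2 values was not tested.

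Ephb1, a receptor for B-class ephrins, was measured at 16.6, 27.5, 21.7 and 17.1 CPM in GFRA1pos, 3.76, 7.04, 11.2 and 8.59 in GFRA1neg, 0.700, 2.90, 0.778, 0.853 and 1.39 in KITpos, and 9.44, 8.54, 10.1 and 8.80 in P6gonocyte. Highest values were again in GFRA1pos and lowest in KITpos, and both groups were apart from every other library. It was higher in GFRA1pos than in GFRA1neg (log2 fold change 1.44 ± 0.35 (SE), edgeR adjusted p = 0.00877), lower in KITpos than in GFRA1neg (log2 fold change -2.48 ± 0.38 (SE), edgeR adjusted p = 2.46e-05) and lower in P6gonocyte than in GFRA1pos (log2 fold change -1.17 ± 0.35 (SE), edgeR adjusted p = 0.0132). Without the 4 libraries highest in spermatid transcripts the first and the third of these calls ended (1.34 and -1.02, edgeR adjusted p = 0.0675 and 0.0716). Ephb4, the receptor of ephrin-B2 and a marker of veins, was instead highest in KITpos. Its values were 12.3, 20.6, 24.2 and 16.7 CPM in GFRA1pos, 9.97, 10.96, 8.78 and 12.04 in GFRA1neg, 39.8, 62.6, 35.8, 38.7 and 33.95 in KITpos, and 15, 32.5, 16.9 and 16.1 in P6gonocyte. KITpos stood above and GFRA1neg below all other libraries, and GFRA1pos and P6gonocyte overlapped. The rise from GFRA1neg to KITpos was the clearest (log2 fold change 2.01 ± 0.26 (SE), edgeR adjusted p = 4.53e-06). The call between GFRA1pos and GFRA1neg was close to the threshold (log2 fold change 0.82 ± 0.27 (SE), edgeR adjusted p = 0.0445) and ended without any 1 of 9 libraries (GFRA1pos replicates 2 and 3, every GFRA1neg library, KITpos replicate 1 and P6gonocyte replicates 3 and 4), with adjusted p from 0.0505 to 0.153. Ephb4 was 48.4% ± 5.63 (SD, n = 5) of the Eph receptor signal per length in KITpos. Endothelial marker sums were lowest in KITpos, at 10.9 to 15.9 CPM. Of the 5 endothelial markers tested against GFRA1neg, 1 was higher in KITpos and 2 lower. The part of endothelial RNA in the Ephb4 values was not tested.

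Epha1, another A-class receptor, fell at the Kit step. Its libraries gave 11.9, 11.9, 12.1 and 8.45 CPM in GFRA1pos, 6.21, 8.32, 10.6 and 7.21 in GFRA1neg, 1.68, 2.32, 3.76, 0.341 and 3.12 in KITpos, and 7.22, 7.46, 10.9 and 9.35 in P6gonocyte. KITpos lay below all other libraries, and the other 3 groups overlapped. Epha1 was lower in KITpos than in GFRA1neg (log2 fold change -1.83 ± 0.37 (SE), edgeR adjusted p = 0.000464). Epha8, a less studied A-class receptor, differed over the 4 groups (edgeR adjusted p = 0.00829), though in no single comparison made here. It stood at 4.26, 8.39, 10.2 and 5.07 CPM in GFRA1pos, 9.69, 13.2, 9.94 and 11.3 in GFRA1neg, 7.56, 14.96, 14.7, 13.6 and 9.01 in KITpos, and 3.33, 8.30, 5.28 and 4.40 in P6gonocyte. Ephb2, another B-class receptor, also passed over the 4 groups (edgeR adjusted p = 0.0233). It was measured at 7.90, 6.34, 6.84 and 5.41 CPM in GFRA1pos, 12.5, 9.84, 9.36 and 13.4 in GFRA1neg, 8.40, 17.9, 14.8, 20.3 and 7.28 in KITpos, and 8.33, 13.3, 8.59 and 6.18 in P6gonocyte. Every GFRA1neg library of Ephb2 lay above every GFRA1pos library, at a log2 fold change of -0.77 that did not pass (edgeR adjusted p = 0.11). It passed in limma voom (adjusted p = 0.0384) and in a fit of the 2 groups alone (edgeR adjusted p = 0.0294). Of the receptors at lower level, Epha7 was higher in KITpos than in GFRA1neg (3.83 to 9.08 against 1.85 to 4.05 CPM, log2 fold change 1.20 ± 0.33 (SE), edgeR adjusted p = 0.00592). Ephb3 was lower there (0 to 2.39 against 5.55 to 6.80 CPM, log2 fold change -2.33 ± 0.49 (SE), edgeR adjusted p = 0.000672), and was lower in P6gonocyte than in GFRA1pos only at the edge of the threshold (log2 fold change -1.26 ± 0.48 (SE), edgeR adjusted p = 0.046; 0.0508 to 0.138 without any 1 of GFRA1pos replicates 2 to 4, GFRA1neg replicates 1, 3 and 4, KITpos replicate 2 and P6gonocyte replicates 1 to 3). Ephb6, which lacks kinase activity, reached 3.46 to 14.3 CPM and did not pass over the 4 groups (edgeR adjusted p = 0.0575), nor did Epha4 or Epha10, at 0.173 to 5.20 CPM.

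**Figure D3:**
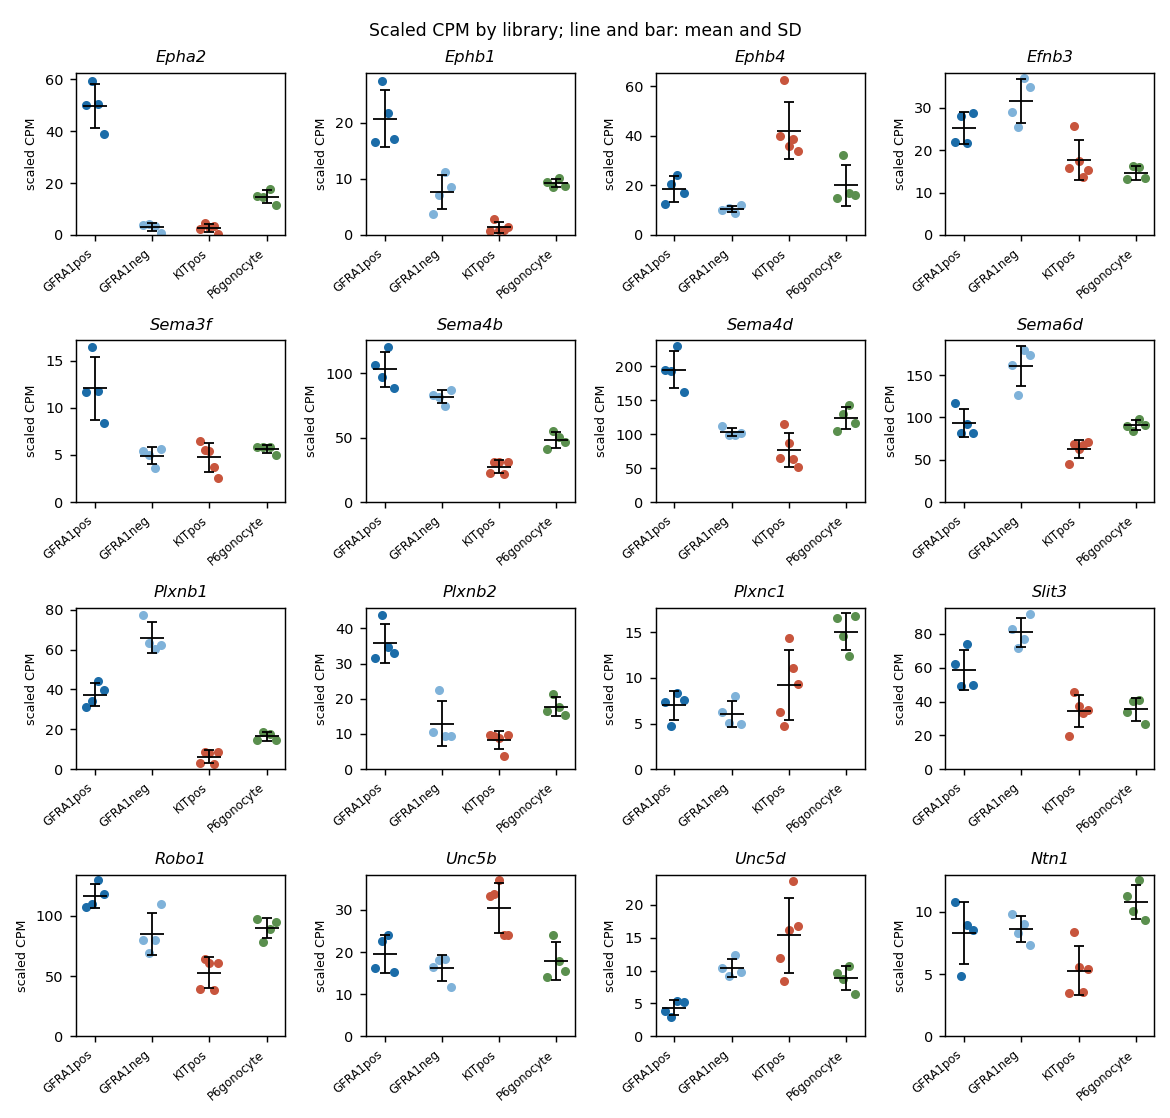
Scaled CPM (y axis) of 16 guidance genes in each library (points), by sorted group (x axis), with the mean and SD as a line and bars. Epha2 sits at 38.8 to 59.4 CPM in GFRA1pos and at most 17.7 elsewhere, and Ephb4 sits at 34.0 to 62.6 CPM in KITpos and at most 32.5 elsewhere.

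Of the semaphorins, Sema4d and Sema4b led GFRA1pos and Sema6d led GFRA1neg per length. Sema4d, a class 4 transmembrane ligand of plexin-B1 also known as CD100, stood at 195, 194, 229.5 and 163 CPM in GFRA1pos, 112, 99.5, 98.4 and 102 in GFRA1neg, 64.5, 115, 86.5, 63.5 and 51.97 in KITpos, and 105, 129, 143 and 117 in P6gonocyte. All GFRA1pos libraries lay above all others, and KITpos replicate 2 lay above GFRA1neg while the other KITpos libraries lay below it. Sema4d was higher in GFRA1pos than in GFRA1neg (log2 fold change 0.93 ± 0.19 (SE), edgeR adjusted p = 0.00225) and lower in P6gonocyte than in GFRA1pos (log2 fold change -0.66 ± 0.19 (SE), edgeR adjusted p = 0.00966). From GFRA1neg to KITpos its log2 fold change of -0.43 did not pass (edgeR adjusted p = 0.0583), and it passed at -0.62 without KITpos replicate 2 (edgeR adjusted p = 0.00213) and under 4 other settings. Its share of the semaphorin signal per length was 42.0% ± 2.21 in GFRA1pos (SD, n = 4), 25.7% ± 1.33 in GFRA1neg (SD, n = 4), 30.2% ± 5.53 in KITpos (SD, n = 5) and 38.5% ± 2.96 in P6gonocyte (SD, n = 4).

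Sema4b, of the same transmembrane class, was measured at 106, 97.01, 121 and 88.8 CPM in GFRA1pos, 83.1, 81.9, 74.9 and 86.96 in GFRA1neg, 22.5, 31.2, 30.99, 21.8 and 31.01 in KITpos, and 40.96, 55.2, 50.4 and 46.6 in P6gonocyte. The 4 groups did not overlap with one another, in the order GFRA1pos, GFRA1neg, P6gonocyte and KITpos. Sema4b was lower in KITpos than in GFRA1neg (log2 fold change -1.57 ± 0.14 (SE), edgeR adjusted p = 4.50e-08) and lower in P6gonocyte than in GFRA1pos (log2 fold change -1.09 ± 0.15 (SE), edgeR adjusted p = 3.27e-05). The step between GFRA1pos and GFRA1neg was small (log2 fold change 0.34 ± 0.14 (SE), edgeR adjusted p = 0.133), and passed in limma voom alone (adjusted p = 0.0349). Sema6d, a transmembrane ligand of plexin-A1, was at 117, 82.1, 91.98 and 81.5 CPM in GFRA1pos, 162, 127, 179.8 and 174 in GFRA1neg, 44.7, 69.1, 62.1, 67.2 and 71.5 in KITpos, and 89.8, 84.5, 98.4 and 90.8 in P6gonocyte. GFRA1neg was apart at the high end and KITpos at the low end, and GFRA1pos overlapped P6gonocyte. It was lower in GFRA1pos than in GFRA1neg (log2 fold change -0.79 ± 0.15 (SE), edgeR adjusted p = 0.00173) and lower in KITpos than in GFRA1neg (log2 fold change -1.35 ± 0.15 (SE), edgeR adjusted p = 5.46e-07). Sema6d made up 27.8% ± 3.38 (SD, n = 4) of the semaphorin signal per length in GFRA1neg and 14.0% ± 1.92 (SD, n = 4) in GFRA1pos.

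Sema3f, a secreted ligand that uses neuropilin-2, had the highest level per length among the class 3 members. Its values were 11.7, 16.5, 11.8 and 8.36 CPM in GFRA1pos, 5.46, 5.04, 3.58 and 5.63 in GFRA1neg, 6.44, 5.57, 5.45, 3.75 and 2.60 in KITpos, and 5.83, 5.89, 5.90 and 4.95 in P6gonocyte. The GFRA1pos libraries were above all others, which overlapped. It was higher in GFRA1pos than in GFRA1neg (log2 fold change 1.29 ± 0.29 (SE), edgeR adjusted p = 0.00447) and lower in P6gonocyte than in GFRA1pos (log2 fold change -1.09 ± 0.29 (SE), edgeR adjusted p = 0.00549). Sema4f was highest in KITpos. It stood at 16.8, 16.98, 13.1 and 12.8 CPM in GFRA1pos, 9.78, 10.6, 10.98 and 8.19 in GFRA1neg, 25.3, 23.6, 24.6, 35.8 and 25.3 in KITpos, and 11.2, 14.8, 10.4 and 12.5 in P6gonocyte. KITpos was apart from the rest, and GFRA1neg lay below GFRA1pos. The rise in KITpos over GFRA1neg passed (log2 fold change 1.45 ± 0.19 (SE), edgeR adjusted p = 4.02e-06). That in GFRA1pos over GFRA1neg passed narrowly (log2 fold change 0.59 ± 0.19 (SE), edgeR adjusted p = 0.0436), and ended in a fit of those 2 groups alone (edgeR adjusted p = 0.0517), and without any 1 of GFRA1pos replicates 1 to 3, the 4 GFRA1neg libraries and P6gonocyte replicates 1, 3 and 4 (0.0527 to 0.127).

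The remaining semaphorins are given by their ranges. Sema4g (3.51 to 4.03 CPM in GFRA1pos, 7.01 to 8.64 in GFRA1neg, 2.05 to 4.33 in KITpos) was highest in GFRA1neg and was lower in KITpos (log2 fold change -1.26 ± 0.29 (SE), edgeR adjusted p = 0.00158). Its difference between GFRA1pos and GFRA1neg (log2 fold change -0.98, edgeR adjusted p = 0.0374) ended without any 1 of the 8 libraries compared. Sema6b was at 0.293 to 1.71 CPM in GFRA1pos and 2.63 to 4.39 in GFRA1neg, 3.92 to 7.88 in KITpos and 2.61 to 5.41 in P6gonocyte, so GFRA1pos lay below all others. It was lower in GFRA1pos than in GFRA1neg (log2 fold change -1.44 ± 0.44 (SE), edgeR adjusted p = 0.0331; ended without any 1 of GFRA1pos replicates 1 and 2 and GFRA1neg replicates 3 and 4). It was higher in P6gonocyte than in GFRA1pos (log2 fold change 1.44 ± 0.44 (SE), edgeR adjusted p = 0.0146; 0.0586 without P6gonocyte replicate 2). Sema3e, which signals through plexin-D1, was at 0.253 to 0.798 CPM in GFRA1pos and 1.13 to 3.36 in GFRA1neg, and 0.232 to 1.04 in KITpos. It was lower than in GFRA1neg in GFRA1pos (edgeR adjusted p = 0.0253) and in KITpos (0.0415), calls that ended without any 1 of 3 and of 9 libraries, GFRA1neg replicate 4 among both. Sema3c was at 0 to 1.33 CPM in GFRA1pos and 2.64 to 5.53 in P6gonocyte, where it was higher (log2 fold change 2.23 ± 0.70 (SE), edgeR adjusted p = 0.0168). Sema4c, a ligand of plexin-B2, was highest in GFRA1pos at 5.08 to 7.81 CPM, with 3.28 to 3.85 in GFRA1neg and 2.78 to 4.14 in P6gonocyte, and it was lower in P6gonocyte (log2 fold change -0.89 ± 0.31 (SE), edgeR adjusted p = 0.0298; ended without any 1 of GFRA1pos replicates 1 and 3 and P6gonocyte replicates 1, 2 and 4). Sema4a was called lower in P6gonocyte than in GFRA1pos at 0.555 to 0.962 against 2.04 to 2.92 CPM, and this call ended without any 1 of 11 libraries, all 8 of these groups and GFRA1neg replicates 1, 3 and 4. Sema5a was lower in KITpos than in GFRA1neg, at 4.15 to 9.04 against 10.1 to 12.5 CPM. Sema3b, Sema5b, Sema6c and Sema7a did not pass over the 4 groups (edgeR adjusted p from 0.111 to 0.542), with Sema5b at 8.35 to 38.2 CPM and Sema7a, a lipid-anchored ligand of plexin-C1, at 6.05 to 17.4 CPM.

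Plexins are the receptors of the semaphorins. Plxna1 was the most abundant of them, at 296, 348, 377 and 279 CPM in GFRA1pos, 372, 327, 370.1 and 370.2 in GFRA1neg, 172, 281, 217, 184 and 162 in KITpos, and 229, 270.4, 245 and 221 in P6gonocyte. It was lower in KITpos than in GFRA1neg (log2 fold change -0.82 ± 0.14 (SE), edgeR adjusted p = 0.000113). The difference between P6gonocyte and GFRA1pos passed (log2 fold change -0.43 ± 0.15 (SE), edgeR adjusted p = 0.0319) and ended without any 1 of GFRA1pos replicates 2 and 3 and P6gonocyte replicates 1, 3 and 4 (0.0603 to 0.108). Plxna1 held 61.0% to 66.3% of the plexin signal per length in the 4 groups. GFRA1pos and GFRA1neg overlapped for this receptor and the log2 fold change of -0.15 did not pass (edgeR adjusted p = 0.6).

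Plxnb1, the receptor of Sema4d, showed the largest fall at the Kit step. Its libraries gave 30.96, 34.4, 43.98 and 39.8 CPM in GFRA1pos, 77.3, 63.4, 60.2 and 62.3 in GFRA1neg, 3.22, 8.81, 8.30, 2.73 and 8.66 in KITpos, and 14.9, 18.9, 17.4 and 14.4 in P6gonocyte. The 4 groups did not overlap with one another, with GFRA1neg highest, then GFRA1pos, P6gonocyte and KITpos. Plxnb1 was lower in KITpos than in GFRA1neg (log2 fold change -3.36 ± 0.27 (SE), edgeR adjusted p = 1.16e-08) and lower in P6gonocyte than in GFRA1pos (log2 fold change -1.18 ± 0.26 (SE), edgeR adjusted p = 0.00182). It was also lower in GFRA1pos than in GFRA1neg (log2 fold change -0.82 ± 0.26 (SE), edgeR adjusted p = 0.0374), a call that ended without any 1 of the 8 libraries of those groups or without P6gonocyte replicate 3 (0.0507 to 0.113). Plxnb2, which binds several class 4 semaphorins, went the other way between the adult Kit-negative fractions. It stood at 31.7, 43.9, 34.8 and 32.9 CPM in GFRA1pos, 10.5, 22.4, 9.47 and 9.48 in GFRA1neg, 9.66, 9.39, 8.95, 3.75 and 9.70 in KITpos, and 16.7, 21.4, 17.7 and 15.3 in P6gonocyte. GFRA1pos lay above all other libraries. GFRA1neg replicate 2 stood above the rest of its group and above P6gonocyte. Plxnb2 was higher in GFRA1pos than in GFRA1neg (log2 fold change 1.46 ± 0.29 (SE), edgeR adjusted p = 0.00175) and lower in P6gonocyte than in GFRA1pos (log2 fold change -1.01 ± 0.28 (SE), edgeR adjusted p = 0.00896). Between KITpos and GFRA1neg the log2 fold change of -0.64 did not pass (edgeR adjusted p = 0.0656), though it passed without GFRA1neg replicate 3 or 4 (0.0434 and 0.0442).

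Plxna3, which pairs with neuropilin-2 as a Sema3f receptor, was at 17.4, 18.6, 18.2 and 18.1 CPM in GFRA1pos, 22.9, 24.1, 25.2 and 24.3 in GFRA1neg, 8.26, 16.6, 10.5, 16.03 and 12.3 in KITpos, and 13.2, 19.6, 14.7 and 15.9 in P6gonocyte. GFRA1neg was apart at the high end. The log2 fold change of -0.42 between GFRA1pos and GFRA1neg did not pass (edgeR adjusted p = 0.188), though it did in limma voom (adjusted p = 0.0435) and in a fit of the 2 groups alone (edgeR adjusted p = 0.0397). Plxna3 was lower in KITpos than in GFRA1neg (log2 fold change -0.92 ± 0.19 (SE), edgeR adjusted p = 0.000572). Plxna2 was higher in KITpos, at 1.60, 2.34, 2.21 and 4.98 CPM in GFRA1pos, 2.45, 8.16, 2.08 and 2.96 in GFRA1neg, 13.02, 8.001, 16.3, 10.4 and 6.58 in KITpos, and 2.78, 3.37, 3.62 and 1.92 in P6gonocyte. Outside KITpos, only GFRA1neg replicate 2 reached its range. The rise over GFRA1neg passed (log2 fold change 1.46 ± 0.43 (SE), edgeR adjusted p = 0.00872), and was 2.11 without GFRA1neg replicate 2 and 2.06 without the 4 libraries highest in spermatid transcripts. Plxnc1, the receptor of Sema7a, was highest in P6gonocyte. Its values were 7.36, 4.68, 8.35 and 7.60 CPM in GFRA1pos, 6.30, 5.04, 7.97 and 4.93 in GFRA1neg, 6.30, 4.75, 14.4, 11.1 and 9.35 in KITpos, and 16.5, 14.6, 12.4 and 16.8 in P6gonocyte. P6gonocyte overlapped KITpos replicate 3 and lay above both adult Kit-negative groups. It was higher in P6gonocyte than in GFRA1pos (log2 fold change 1.10 ± 0.30 (SE), edgeR adjusted p = 0.0073), and the call ended without the 4 libraries highest in spermatid transcripts (0.97, edgeR adjusted p = 0.0648). Plxnd1 was abundant in every group (54.5, 38.5, 53.9 and 50.6 CPM) and did not pass over the 4 groups (edgeR adjusted p = 0.109). Plxnb3 was at 0.591 to 3.02 CPM in GFRA1pos and 0 to 0.207 in P6gonocyte, where it was called lower, and Plxna4 did not pass, at 0.753 to 7.54 CPM. Of the neuropilins, Nrp2 was at 4.06 to 17.5 CPM and made up 83.5% to 95.7% of their signal per length by group. Nrp1 was at 0 to 1.66 CPM and passed over the 4 groups (edgeR adjusted p = 0.0321), a call that ended without any 1 of GFRA1pos replicate 4, GFRA1neg replicate 1, KITpos replicates 2, 3 and 5 and P6gonocyte replicates 2 to 4.

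**Figure D4:**
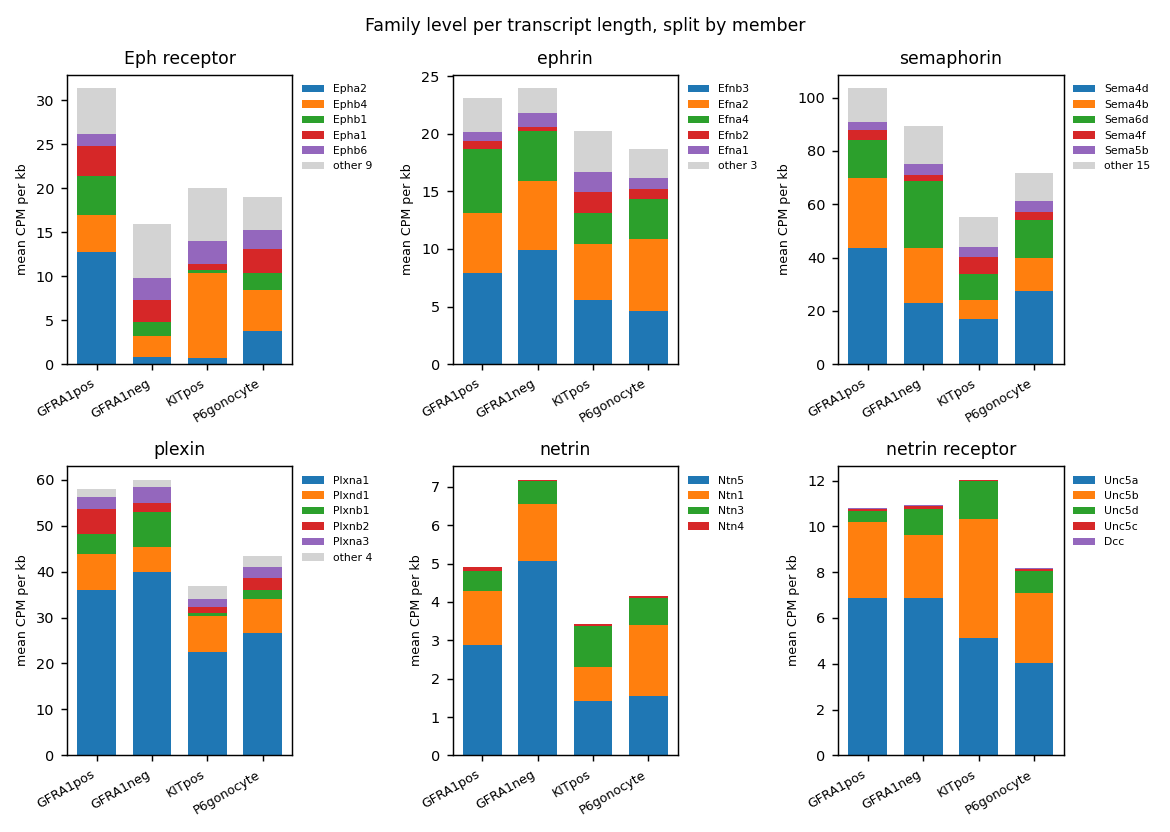
Mean CPM per kb of transcript (y axis) summed over a family and split by member (colors), for the 4 sorted groups (x axis). Epha2 makes up the largest block of Eph receptors in GFRA1pos at 12.7 CPM per kb, and Ephb4 that in KITpos at 9.72 CPM per kb.

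Slit3 led the Slit transcripts in every group, and Robo1 was nearly the sole Robo transcript measured. Slit3, a secreted repellent, was at 62.5, 49.3, 73.9 and 49.7 CPM in GFRA1pos, 82.8, 71.8, 77.2 and 91.99 in GFRA1neg, 19.7, 45.8, 37.2, 33.3 and 34.99 in KITpos, and 34.02, 40.3, 41.2 and 26.5 in P6gonocyte. It was lower in KITpos than in GFRA1neg (log2 fold change -1.24 ± 0.19 (SE), edgeR adjusted p = 3.55e-05) and lower in P6gonocyte than in GFRA1pos (log2 fold change -0.73 ± 0.21 (SE), edgeR adjusted p = 0.00932). GFRA1pos and GFRA1neg overlapped, and so did KITpos and P6gonocyte. Robo1, the receptor, was at 107, 110.1, 129.6 and 118 CPM in GFRA1pos, 80.05, 69.2, 79.95 and 109.8 in GFRA1neg, 39.3, 64.5, 60.8, 38.7 and 60.8 in KITpos, and 97.3, 78.4, 89.2 and 94.5 in P6gonocyte. KITpos lay below all other libraries, and P6gonocyte below GFRA1pos. It was lower in KITpos than in GFRA1neg (log2 fold change -0.68 ± 0.16 (SE), edgeR adjusted p = 0.00218). The other differences of Robo1 did not pass: 0.46 between GFRA1pos and GFRA1neg (edgeR adjusted p = 0.0883) and -0.37 between P6gonocyte and GFRA1pos (edgeR adjusted p = 0.0945). They passed in limma voom (adjusted p = 0.0159 and 0.0223) and in fits of the 2 groups alone (edgeR adjusted p = 0.0441 and 0.0136). Slit3 was 85.1% to 96.0% of the Slit signal per length by group, and Robo1 was 99.2% to 99.9% of the Robo signal. Slit1 was at 3.55 to 6.72 CPM in GFRA1neg and at most 2.10 elsewhere. It was lower than in GFRA1neg both in GFRA1pos (log2 fold change -2.52 ± 0.63 (SE), edgeR adjusted p = 0.0105) and in KITpos (log2 fold change -1.70 ± 0.57 (SE), edgeR adjusted p = 0.0207). Both Slit1 calls ended without the 4 libraries highest in spermatid transcripts (-1.832 and -1.625, edgeR adjusted p = 0.209 and 0.0654). The KITpos call also ended without GFRA1neg replicate 2 (edgeR adjusted p = 0.0748). Slit2 was at 3.55 to 6.77 CPM in GFRA1neg and 4.33 to 15.5 in KITpos. Its rises in KITpos and in P6gonocyte were close to the threshold (edgeR adjusted p = 0.0413 and 0.0478) and ended without any 1 of 8 and of 12 libraries, P6gonocyte replicates 3 and 4 among both.

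Of the repulsive netrin receptors, Unc5a, Unc5b and Unc5d were well measured and Unc5c was low. Dcc did not pass the filter on low counts. Ntn1, the classic secreted netrin, was at 10.8, 4.88, 8.96 and 8.53 CPM in GFRA1pos, 9.78, 8.32, 9.01 and 7.30 in GFRA1neg, 3.50, 8.35, 5.58, 3.58 and 5.37 in KITpos, and 11.2, 10.1, 12.5 and 9.35 in P6gonocyte. It was lower in KITpos than in GFRA1neg (log2 fold change -0.70 ± 0.27 (SE), edgeR adjusted p = 0.0441), although KITpos replicate 2 lay above 2 GFRA1neg libraries. The call ended without any 1 of 12 libraries (0.0527 to 0.108), all but GFRA1pos replicates 1 and 2, GFRA1neg replicate 4, KITpos replicate 2 and P6gonocyte replicate 2. Ntn5 led the netrins per length in GFRA1pos, GFRA1neg and KITpos, at 2.87, 5.08 and 1.41 CPM per kb. GFRA1neg was apart at 5.92 to 10.9 CPM, and Ntn5 was lower in KITpos at 1.56 to 3.89 CPM (log2 fold change -1.83 ± 0.34 (SE), edgeR adjusted p = 0.000201). Ntn3 did not pass, at 1.46 to 8.49 CPM.

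Among the netrin receptors, Unc5a was at 27.9, 26.7, 32.5 and 22.6 CPM in GFRA1pos, 28.3, 26.9, 25.3 and 29.2 in GFRA1neg, 13.6, 28.99, 20.1, 22.9 and 16.98 in KITpos, and 15.97, 16.6, 16.4 and 15.8 in P6gonocyte. P6gonocyte was below the libraries of GFRA1pos and GFRA1neg and was lower than GFRA1pos (log2 fold change -0.76 ± 0.19 (SE), edgeR adjusted p = 0.0044). From GFRA1neg to KITpos the difference of -0.42 did not pass (edgeR adjusted p = 0.0674), and it passed under 4 other settings and without KITpos replicate 2 (-0.58, edgeR adjusted p = 0.00849). Unc5b was higher in KITpos. It stood at 16.2, 22.6, 24.1 and 15.2 CPM in GFRA1pos, 16.6, 18.1, 18.4 and 11.7 in GFRA1neg, 33.3, 33.7, 37.1, 24.1 and 24.1 in KITpos, and 14.2, 24.1, 17.9 and 15.4 in P6gonocyte. KITpos lay above GFRA1neg (log2 fold change 0.91 ± 0.21 (SE), edgeR adjusted p = 0.00165) and its 2 lowest libraries met the highest of GFRA1pos and P6gonocyte. Unc5d was lowest in GFRA1pos, at 3.81, 2.93, 5.33 and 5.24 CPM in GFRA1pos, 10.4, 9.12, 12.4 and 9.77 in GFRA1neg, 11.9, 8.46, 16.2, 23.5 and 16.8 in KITpos, and 9.58, 8.78, 10.8 and 6.46 in P6gonocyte. GFRA1pos lay below all other libraries. Unc5d was lower there than in GFRA1neg (log2 fold change -1.26 ± 0.29 (SE), edgeR adjusted p = 0.00603) and higher in P6gonocyte than in GFRA1pos (log2 fold change 1.04 ± 0.29 (SE), edgeR adjusted p = 0.00901). Both calls ended without the 4 libraries highest in spermatid transcripts (-1.20 and 0.99, edgeR adjusted p = 0.0649 and 0.0577). Unc5a held 63.8% ± 3.08 (SD, n = 4) of the signal of these receptors per length in GFRA1pos and 42.1% ± 7.47 (SD, n = 5) in KITpos, where Unc5b held 43.3% ± 8.11 (SD, n = 5). Unc5c was at 0 to 1.92 CPM and did not pass.

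Known ligand and receptor pairs can be read side by side within each group, with no test between genes. For Sema4d and its receptor Plxnb1 the levels were 43.5 and 4.31 CPM per kb in GFRA1pos, 22.9 and 7.61 in GFRA1neg, 17.03 and 0.734 in KITpos, and 27.6 and 1.90 in P6gonocyte. Sema4d was highest in GFRA1pos and Plxnb1 in GFRA1neg. Plxnb2, which binds several class 4 semaphorins, was highest in GFRA1pos, at 31.7 to 43.9 CPM against 9.47 to 22.4 in GFRA1neg. For Sema6d and Plxna1 the levels were 14.4 and 35.96, 24.9 and 39.8, 9.77 and 22.5, and 14.1 and 26.7 CPM per kb in the same order, both lowest in KITpos. Slit3 and Robo1 stood at 11.2 and 15.4, 15.5 and 11.2, 6.54 and 6.99, and 6.79 and 11.9 CPM per kb. By group mean, ephrin-B2 and EphB4 transcripts were both highest in KITpos, at 1.85 and 9.72 CPM per kb, against 0.368 and 2.40 in GFRA1neg, where both means were lowest. The Efnb2 libraries of these groups overlapped, at 1.91 to 17.6 CPM in KITpos and 0.592 to 4.42 in GFRA1neg.

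The wider pathway was read from lists of genes outside the 69 members, also chosen with earlier results of these data known. Of 35 related ligands and co-receptors, 29 were tested. Between GFRA1pos and GFRA1neg 6 were higher and 4 lower (34.5% called, against 14.1% of all genes). In KITpos against GFRA1neg the counts were 7 and 10 (58.6%, against 45.1%). In P6gonocyte against GFRA1pos they were 4 and 7 (37.9%, against 39.2%), close to the share of all genes. Mcam, a cell adhesion molecule reported to bind netrin-1, was at 447 CPM in GFRA1pos, 98.6 in GFRA1neg and 202 in P6gonocyte (log2 fold change 2.18 ± 0.16 (SE) between the adult groups, edgeR adjusted p = 5.74e-08). Rgma, a ligand of the netrin receptor neogenin, was at 50.5 CPM in GFRA1neg against 7.55 in GFRA1pos and 7.49 in KITpos (log2 fold changes -2.74 ± 0.24 and -2.74 ± 0.22 (SE), edgeR adjusted p = 2.66e-07 and 1.36e-08). Met, the receptor of hepatocyte growth factor and a partner of plexin-B1, was at 73.4 CPM in KITpos against 22.9 in GFRA1neg, and at 39.7 in P6gonocyte against 13.9 in GFRA1pos.

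Of 67 cytoplasmic effectors, 64 were tested. Between GFRA1pos and GFRA1neg 13 were higher and 4 lower (26.6% called, against 14.1% of all genes), and their median log2 fold change was 0.18. In KITpos 13 were higher and 28 lower (64.1%, against 45.1%), with a median of -0.44, and in P6gonocyte against GFRA1pos 10 were higher and 19 lower (45.3%, against 39.2%). Inppl1 (SHIP2, a lipid phosphatase that binds EphA2) was at 87.7 CPM in GFRA1pos and 33.0 in GFRA1neg (log2 fold change 1.41 ± 0.17 (SE), edgeR adjusted p = 1.31e-05). Fyn, a kinase downstream of several guidance receptors, was at 95.7 and 38.9 CPM (1.30 ± 0.16 (SE), edgeR adjusted p = 2.15e-05). Arhgef15, an exchange factor that acts with EphB2, was at 150 CPM in GFRA1neg and 2.64 in KITpos (-5.80 ± 0.28 (SE), edgeR adjusted p = 1.61e-11). Srgap3, a Robo effector, was at 26.9 and 6.92 CPM (-1.96 ± 0.17 (SE), edgeR adjusted p = 3.88e-08). Mical2, of the plexin-linked MICAL oxidoreductases, was at 25.5 CPM in GFRA1pos and 7.50 in P6gonocyte, while Rnd2, a small GTPase that binds plexins, was at 9.52 and 26.9 CPM. Without the 4 libraries highest in spermatid transcripts 6 effectors were higher and 1 lower between GFRA1pos and GFRA1neg, and 6 were higher in P6gonocyte than in GFRA1pos. The count lower in GFRA1pos was 1 without GFRA1pos replicate 4 or GFRA1neg replicate 1 or 3, and 2 without GFRA1pos replicate 1, 2 or 3 or GFRA1neg replicate 4. The count lower in P6gonocyte was 12 without GFRA1pos replicate 3 or P6gonocyte replicate 4. Over all genes, leaving out the 4 libraries gave 753 higher and 515 lower in GFRA1pos and 1850 higher in P6gonocyte, of 15861. The single-library fits named gave 705 to 764 genes lower in GFRA1pos, and 2954 and 2843 lower in P6gonocyte. With all libraries 1128 genes were higher and 1057 lower in GFRA1pos, and 2679 higher and 3381 lower in P6gonocyte, of 15451.

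The 12 members not tested held 4 to 91 counts each over all libraries. They were the receptors Dcc, Epha3, Epha5, Epha6, Robo2, Robo3 and Robo4, and the ligands Ntn4, Sema3a, Sema3d, Sema3g and Sema6a. Their highest values in a library ran from 0.201 CPM for Epha3 and Sema3a to 2.76 CPM for Epha5. Dcc, the attractive netrin receptor, had 10, 10, 3 and 18 counts in GFRA1pos, GFRA1neg, KITpos and P6gonocyte. Robo4, which is known from endothelium, had 0 counts in GFRA1pos, which allows up to 0.0693 CPM there over the 4 libraries (3 counts, for counting error alone). Sema6a had 3 counts in GFRA1pos and 47 in GFRA1neg.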

How the data were processed

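Whole-number counts per gene, deposited by the authors as 1 table and not normalized in its values, were used for 17 libraries, each grouped by its title. Per the labels' protocols, RNA of sorted cells was amplified with NuGEN Ovation V2 from 5 to 10 ng and sequenced in paired 101 bp reads. Per the submitters' processing notes the build was mm9, with Trim Galore, TopHat2 2.0.4, Bowtie2 2.0.0-6, Bowtie, DESeq and DESeq2 named without roles; the counting tool, and whether it used strand, is not given in the sources used here, so overlapping or antisense genes cannot be told apart. A column headed with GFP for GFR was read as GFRA1pos replicate 1. Symbols came from RefSeq (GRCm38.p6) for 23930 rows; 83 rows had none.

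All 15451 genes past filterByExpr were fitted in R 4.3.3 by the quasi-likelihood test of edgeR 4.0.16 (TMM scaling, 1 mean per group, Benjamini-Hochberg adjustment over all genes, threshold 0.05). The biological coefficient of variation was 0.30. The step was tested on simulated data. Chi-square per degree of freedom between replicates ran from 3.89 to 46.5 over 28 pairs. CPM use TMM-scaled sizes, and lengths are of the longest GENCODE vM21 transcript. Alternatives used DESeq2 1.42.0, limma 3.58.1, other scalings and filters, 2 groups alone, a replicate block and left-out libraries. Values in every library are given for the 24 members with the smallest adjusted p over the 4 groups among the 25 past the threshold with a group mean of at least 10 CPM; Sema5a was the one not given. Members and lists were chosen with earlier results of these data known.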

Additional observations from a re-analysis of the deposited data

Results flagged for a closer look

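Among 96 groups of 4 or 5 libraries, 1 for each of the 24 members and each sort, 10 held a library far from the others by Dixon's test at the 95% level; chance gives about 1 in 20. GFRA1neg replicate 2 was one of these for 3 plexins: Plxnb2 was at 22.4 CPM against 9.47 to 10.5 in the other libraries, Plxna2 at 8.16 against 2.08 to 2.96, and Plxna1 at 327 against 370.1 to 372. In GFRA1neg replicate 4 Epha2 was at 0.691 CPM against 3.58 to 4.16.

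KITpos replicate 4 had Sema4f at 35.8 CPM against 23.7 to 25.3 and Plxnb2 at 3.75 CPM against 8.95 to 9.70. Ephb4 was at 62.6 CPM in KITpos replicate 2 against 34.0 to 39.8, and at 32.5 CPM in P6gonocyte replicate 2 against 15.0 to 16.9. P6gonocyte replicate 4 had Sema3f at 4.95 CPM against 5.83 to 5.90, and GFRA1pos replicate 4 had Epha1 at 8.45 CPM against 11.9 to 12.1.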

How the results depend on the processing

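Among the 24 members given in full, no difference that passed the test changed direction under the alternatives run. Differences that did not pass crossed 0 under some of them for Epha2 and Sema3f in KITpos, Sema6d, Ephb4 and Plxna2 in P6gonocyte, and Unc5a, Ntn1 and Plxna2 in GFRA1pos (Plxna2 from -0.50 to 0.16 without GFRA1neg replicate 2). Over the 24 members and 3 comparisons, 51 of 72 differences kept their side of the threshold in all alternatives. Between GFRA1pos and GFRA1neg, 11 members were higher and 12 lower in limma voom with quality weights, 4 were lower with no filter on low counts, and 4 were higher and 1 lower without the 4 libraries highest in spermatid transcripts, a choice made after seeing the data that leaves 2 GFRA1pos and 3 GFRA1neg libraries. Without them 0 members were higher in P6gonocyte than in GFRA1pos (4 at an unadjusted edgeR p under 0.05). Over all genes limma voom gave 1674 higher and 1802 lower in GFRA1pos than in GFRA1neg, against 1128 and 1057 in the main fit, of 15451. With no filter 788 of 21502 genes were lower. Without the 4 libraries 753 were higher and 515 lower of 15861. In P6gonocyte 1850 genes were higher without them, against 2679 of 15451 in the main fit. Leaving out each library in turn gave 38 to 42 members differing over the 4 groups, 5 to 8 higher and 3 to 8 lower in GFRA1pos, 6 to 10 higher and 14 to 19 lower in KITpos, and 4 to 5 higher and 11 to 17 lower in P6gonocyte. Over all genes these fits gave 10726 to 11435 differing, and 839 to 1276 higher and 705 to 1207 lower in GFRA1pos. They gave 3037 to 3796 higher and 3173 to 3644 lower in KITpos. In P6gonocyte 2198 to 2855 genes were higher and 2833 to 3608 lower. Other counts of members stayed within 1.5 times the main count. Deviations of same-numbered GFRA1pos and GFRA1neg libraries correlated at 0.48, 0.52, 0.37 and 0.03, replicates 1 to 3 best with their own number, which hints at pairing there; the labels give none, and with 1 pair under 0.1 the numbers were not used as pairs. The other comparisons gave -0.26 to 0.11. The replicate block gave each number the same effect in all 4 groups, so it was not a paired fit of GFRA1pos and GFRA1neg. With this block the counts of members were 42 over the 4 groups, 6 and 7, 10 and 16, and 5 and 15. Over all genes they were 11329, 1292 and 1292, 3351 and 3507, and 2915 and 3494. Among the 24 members the block ended the calls of Sema4f in GFRA1pos (edgeR adjusted p = 0.056) and Ntn1 in KITpos (0.076) and added Plxnb2 in KITpos (0.0342). The 12 members under the filter are limited by depth. Except where a setting uses fewer libraries, the cause of these changes was not tested.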
